A study of Arabidopsis thaliana with 3 samples.

Results

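Cytochrome P450 genes were followed in whole Arabidopsis thaliana seedlings of 2 plastid protein import mutants and their wild type. A gene was taken where a probe set was annotated to it alone and its symbol was a P450 name, that is CYP followed by a number, letters and a number. This gave 3 of the 3602 named genes, CYP71B6 (AT2G24180), CYP71B28 (AT1G13090) and CYP71B29 (AT1G13100). All 3 belong to family 71, subfamily B, and none to another family. In the RefSeq gene table (TAIR10.1), 225 genes in 40 families carry a symbol of this form, 35 of them CYP71B. The platform annotation thus names only a small share of the P450 genes. It lists no gene for 4433 of the 8297 probe sets, so whether the array holds further P450 genes is not known. Those without a probe set annotated to them alone were not analysed here.

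The first group was ppi1, a Col-0 line with a T-DNA insertion in the gene for Toc33, a receptor of the translocon that brings proteins into plastids. The second was line 75-IV, a Col-0 line whose label gives a Toc75 gene as the site of its T-DNA. Toc75 is the name of the import channel protein, but whether the product of this gene forms a channel was not tested here. The label prints AT4G09070 for that gene, whereas the RefSeq gene table gives TOC75-IV as AT4G09080. The series title calls the mutant ppi3. The third group was Col-0 wild type without a modification. Seedlings of all groups were at growth stage 1.02 on MS medium with 0.5% sucrose, under 16 h of light and 8 h of dark. The number of pooled plants is blank in the series' design field. Each group had 1 array, so no test, standard error or replicate spread exists, and every difference below is between single arrays. Each mutant was represented by 1 insertion line. None of the loci AT1G02280 (Toc33), AT4G09070 and AT4G09080 had a probe set annotated to it alone (0 of these), so the mutated genes could not check the labels.

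P450 enzymes are haem proteins that insert an oxygen atom into a substrate, usually at the membrane of the endoplasmic reticulum, with electrons passed on from a reductase. Plants use them to make lignin, hormones, sterols, carotenoids, cuticle lipids and defence compounds. The CYP71 family belongs to specialised metabolism, and CYP71B15, also called PAD3, makes the indole phytoalexin camalexin. CYP71B6 acts on another indole compound of Arabidopsis and turns indole-3-acetonitrile into indole-3-carbaldehyde. Some other P450 enzymes work in plastids, such as the carotenoid hydroxylases LUT1 and LUT5 and allene oxide synthase (AOS) of jasmonate synthesis. No probe set was annotated to any of these plastid enzymes alone, so they were not analysed here.

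All 3 genes were above the floor of 14.9 on all 3 arrays. The floor is the 40th percentile of all deposited signals without control probe sets, and a gene was called measured in a comparison when it lay above it on both arrays. Of all named genes, 57.91% lay above it in ppi1, 55.69% in line 75-IV and 54.22% in wild type. CYP71B29 came nearest to the floor, at 2.09 times its value in line 75-IV. The lowest of the other signals of the 3 genes was at 3.54 times its value. Signals of different probe sets do not rank the genes against each other, since probe sets differ in how strongly they bind.

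CYP71B6 had a signal of 102.9 in ppi1, 139.1 in line 75-IV and 121.2 in wild type. It was thus lowest in ppi1 and highest in line 75-IV, 1.35-fold apart. A range at least as wide was found in 56.24% of the 1796 genes above the floor on all arrays. Its probe set carries a suffix that marks possible hybridisation to more than 1 transcript. In the gene table its span overlaps that of the next gene, SDR2, which had no named probe set.

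CYP71B28 had a signal of 73.7 in ppi1, 76.6 in line 75-IV and 69.8 in wild type. These 3 values lay within 1.10-fold of each other. Of the same 1796 genes, 94.1% had a range at least as wide. No substrate is named here for this enzyme.

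CYP71B29 had a signal of 52.8 in ppi1, 31.1 in line 75-IV and 54.7 in wild type. The ppi1 and wild-type arrays were close together and line 75-IV was low, so that the highest and lowest signals were 1.76-fold apart. A range at least this wide was found in 18.43% of the genes above the floor on all arrays. No substrate is named here for this enzyme either.

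**Figure D1:**
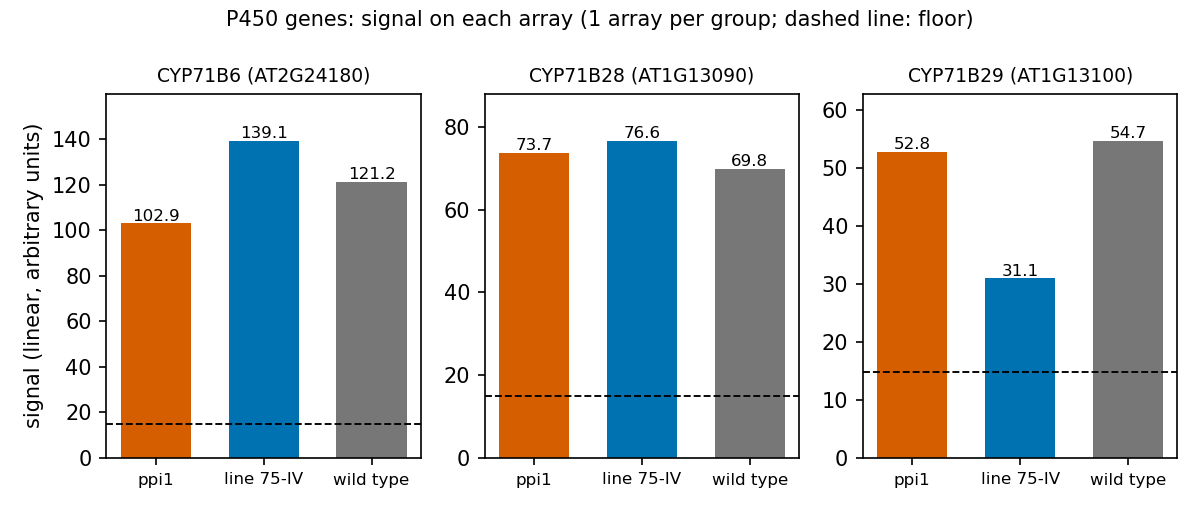
Signal of each P450 gene (linear scale, arbitrary units) on the arrays of ppi1, line 75-IV and wild type, with the floor of 14.9 as a dashed line; each bar is 1 array and has no error, and each panel has its own axis. CYP71B29 stands at 31.1 in line 75-IV against 54.7 in wild type, while CYP71B28 stays between 69.8 and 76.6.

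Signals had trimmed means of 100.2 on each array. The scanner background was 61.98 in ppi1, 56.59 in line 75-IV and 50.47 in wild type. The ppi1 array also had more outlier cells (504, against 20 in line 75-IV and 11 in wild type) and a higher noise value (2.49, against 1.94 and 1.65 in the same order). The control transcript GAPDH had a ratio of 3' to 5' signal of 1.61 in ppi1, 2.42 in line 75-IV and 18.7 in wild type. For ubiquitin the same ratio was 2.75 in ppi1, 3.51 in line 75-IV and 4.16 in wild type, so the wide gap of the wild-type array was seen for GAPDH and not for ubiquitin. Of 10 marker genes of photosynthetic tissue, 5 had a named probe set and all 5 were above the floor on each array, with summed signals of 7588.5 in ppi1, 10335.2 in line 75-IV and 11483.2 in wild type. All 5 were lowest in ppi1, while LHCB4.3 and SBPASE were higher in line 75-IV than in wild type (174.1 against 124.2 and 970.0 against 901.9). The 7 root, 8 seed reserve and 4 flower markers had none (0 each), so the share of other organs was not seen. The part of RNA quality or organ share in the P450 values was not tested, and in whole seedlings fewer cells of a type and less RNA per cell cannot be told apart.

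In ppi1 against wild type the question was whether these genes differ where Toc33 is disrupted. None of the 3 P450 genes was 2-fold apart (0 of 3), where 6.69% of the 1853 measured genes were. CYP71B6 had a log2 ratio of -0.24 for ppi1 over wild type, a signal 1.18-fold lower as deposited but higher (0.25) under scaling to the spike-in controls. CYP71B28 had 0.08 and CYP71B29 -0.05. Their median was -0.05, beside a median of 0.11 over all measured genes, the middle 50% of which ran from -0.22 to 0.44. No sign of the 3 held under every scaling, since CYP71B28 stood at -0.02 after loess and CYP71B29 at 0.43 under the spike-in scaling. Relative to the median of all genes, the deposited signals put CYP71B6 at -0.34, CYP71B29 at -0.16 and CYP71B28 at -0.03.

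For line 75-IV against wild type the same question concerned the insertion labelled as Toc75. CYP71B29 was 1.76-fold lower in line 75-IV, a log2 ratio of -0.81. CYP71B6 stood at 0.20 (0.02 under the spike-in scaling) and CYP71B28 at 0.13, which turned to -0.04 under that scaling. No P450 gene reached 2-fold (0 of 3), whereas 1.88% of the 1859 measured genes did. At 1.5-fold, CYP71B29 was the 1 P450 gene called, beside 11.8% of all measured genes in either direction and 3.98% lower by that much. A lower ratio than that of CYP71B29 was found in 22 measured genes (1.18%), and 3.87% lay at least as far from 0 in either direction. The middle 95% of all genes ran from -0.67 to 0.82. The P450 median was 0.13, beside 0.05 over all genes.

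No replicate shows how far such a ratio varies by measurement alone. The nearest thing on these arrays is the disagreement of different probe sets for 1 gene. Those probe sets were read from the same RNA on the same arrays. Their spread therefore holds no variation between replicate arrays or plants and cannot stand in for it. For line 75-IV over wild type, 86 genes had more than 1 measured probe set, and their ratios spread by a median of 0.34 (log2). In 13 of the 86 genes the spread was as large as the ratio of CYP71B29 or larger. CYP71B29 has a single probe set, so its own disagreement is not known. Its ratio was below -0.81 after each rescaling of the arrays, with a range down to -0.99, and it was not measured with a floor at the 60th percentile (39.9), which its signal in line 75-IV does not reach.

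CYP71B28 and CYP71B29 lie side by side on chromosome 1. With CYP71B2 and CYP71B7 they form an unbroken run of 4 protein-coding P450 genes in the RefSeq gene table, of which these 2 had a named probe set. Their ratios were apart by -0.95 (log2, CYP71B29 minus CYP71B28) for line 75-IV over wild type, a 1.93-fold gap. For ppi1 over wild type the gap was -0.13. The neighbours thus stood together in ppi1 and apart in line 75-IV, with no test of either gap. Whether such similar genes share hybridisation was not tested, since no probe sequences were at hand.

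The direct comparison of ppi1 with line 75-IV left out the wild-type array. CYP71B29 was 1.70-fold higher in ppi1 (52.8 against 31.1), a log2 ratio of 0.76. CYP71B6 was 1.35-fold lower in ppi1 (102.9 against 139.1), a log2 ratio of -0.43 that turned to 0.23 under the spike-in scaling. CYP71B28 stood at -0.06. No P450 gene reached 2-fold (0 of 3), whereas 6.26% of the 1885 measured genes did. At 1.5-fold CYP71B29 was called higher, as were 14.4% of all genes, and 24.6% were called in either direction. A higher ratio than that of CYP71B29 was found in 134 measured genes (7.11%), and 13.69% lay at least as far from 0 in either direction. The median of the 3 genes was -0.06 and that of all measured genes 0.07. Scaling to the spike-in controls put the median of all genes at 0.71, and under it CYP71B29 passed 2-fold at 1.42, as did 27.7% of all measured genes in either direction, and CYP71B28 stood at 0.61. Relative to the median of all genes, CYP71B29 was at 0.70 as deposited and 0.72 under that scaling. For 92 genes with several measured probe sets the ratios spread by a median of 0.32, and by at least the 0.76 of CYP71B29 in 14.

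**Figure D2:**
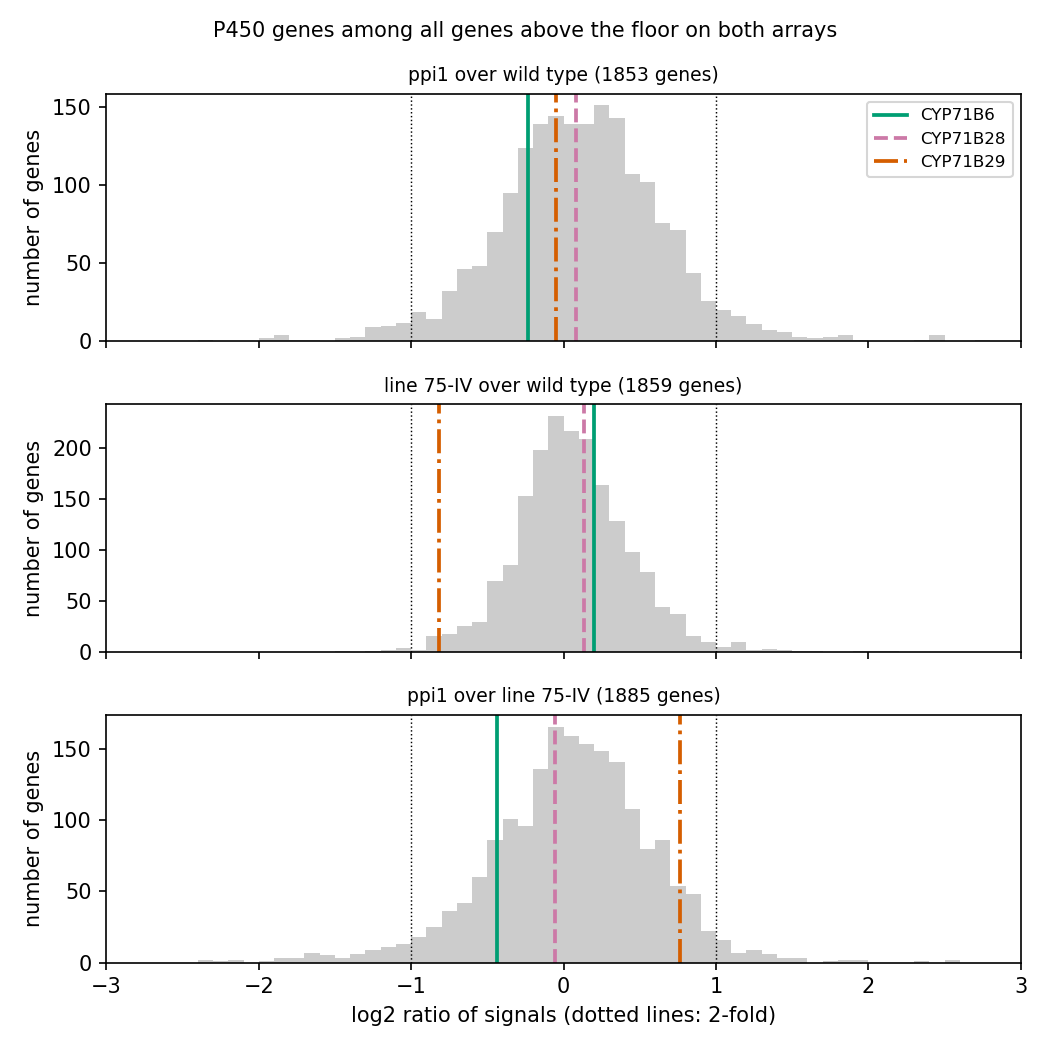
Number of genes (vertical axis) by log2 ratio of signals (horizontal axis) for the 3 pairs of arrays, over genes above the floor on both; coloured lines mark the P450 genes and dotted lines 2-fold. CYP71B29 stands at -0.81 for line 75-IV over wild type, below the middle 95% of genes, with 22 genes lower still. The other P450 ratios lie inside the middle 95% of genes.

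**Figure D3:**
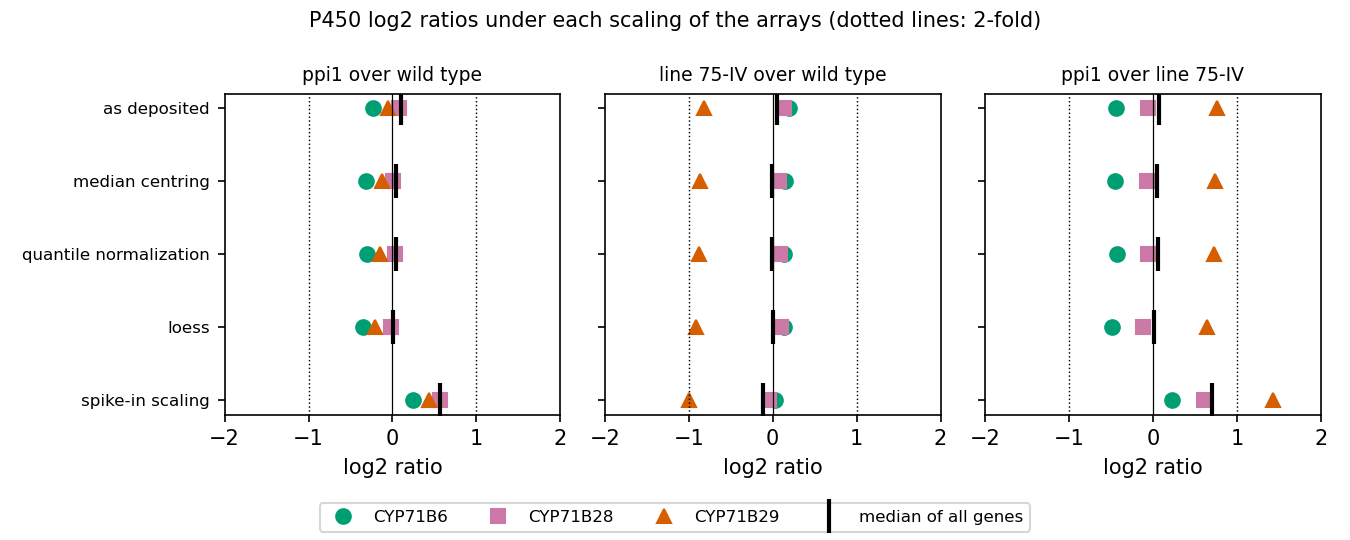
Log2 ratio of each P450 gene (horizontal axis) under 5 ways of scaling the arrays (vertical axis), with the median of all genes as a black bar. Spike-in scaling moves all genes of a comparison together, to a median of 0.57 for ppi1 over wild type, and CYP71B29 stays near its distance from that median.

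Genes that work beside P450 enzymes were thinly covered by the platform annotation. Of 115 entries in 9 lists of pathway genes and redox partners, 5 had a named probe set and 4 were measured. As deposited, none of the 4 was 2-fold apart in any comparison (0 in each). Of all measured genes, 6.69% were for ppi1 over wild type, 1.88% for line 75-IV over wild type and 6.26% for ppi1 over line 75-IV. With so few genes a count of 0 says little, and the 4 were not counted under the other scalings. No reductase or cytochrome b5 of the 9 redox partners had one (0 of 9). Neither did any of the 12 sterol and brassinosteroid, 10 gibberellin or 13 jasmonate genes.

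The camalexin and tryptophan list and the glucosinolate list had 1 measured gene each. The second list covers glucosinolates as a whole, not only indole compounds such as the substrate of CYP71B6. Other indole genes on the array lay outside the lists and were not gathered, so these 2 genes do not stand for indole metabolism. The indole-3-glycerol phosphate synthase gene AT2G04400, of tryptophan synthesis, had 45.4 in ppi1, 48.4 in line 75-IV and 43.0 in wild type. UGT74B1, a glucosyltransferase of glucosinolate synthesis, had 81.5 in ppi1, 59.2 in line 75-IV and 61.8 in wild type. As deposited, AT2G04400 therefore hardly differed among the arrays, and UGT74B1 was highest in ppi1, where CYP71B6 was lowest. The place of CYP71B6 depended on the scaling. Under spike-in scaling it was highest in ppi1, at 0.25 over wild type and 0.23 over line 75-IV (log2). The log2 ratio of UGT74B1 was 0.40 for ppi1 over wild type and -0.06 for line 75-IV over wild type.

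In the carotenoid list the lycopene cyclase gene LYC had 835.4 in ppi1, 953.3 in line 75-IV and 1071.5 in wild type with its brighter probe set. Its other probe set ran the opposite way, with 351.0 in ppi1, 345.4 in line 75-IV and 210.6 in wild type. In the cuticle list the thioesterase gene FATB, which releases the fatty acids used for wax and cutin, had 36.2 in ppi1, 43.1 in line 75-IV and 51.9 in wild type. The flavonoid gene DFR, which reduces dihydroflavonols, had signals of 3.2 in ppi1, 14.8 in line 75-IV and 8.6 in wild type, all below the floor.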

How the data were processed

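Per the labels' protocols, biotin-labelled cRNA was made from total RNA with an oligo-dT primer and read on 1-colour Affymetrix arrays of 8297 probe sets. The deposited values are probe set signals, a linear intensity per probe set. Neither software nor scaling target is stated in the sources used here. Means trimmed by 2% were 100.168 (ppi1), 100.176 (line 75-IV) and 100.178 (wild type), so the intensity values were used as deposited, taken as scaled already. The number of arrays limits their precision. Such scaling hides differences in total mRNA.

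Control probe sets (50) entered no gene result. Of all probe sets, 3794 probe sets had 1 gene in the platform annotation, 70 several and 4433 none listed; the brightest by mean log2 signal stood for each of 164 genes with more than 1. All 3 P450 genes have 1 probe set and were found by Entrez ID in the RefSeq gene table. With control probe sets included, as first planned, the floor is 14.8 in place of 14.9. Log2 ratios were set against a threshold of 2-fold, a rule of size. Every member is named; pathway genes were named by a rule of up to 4 measured genes per list with the largest ratio of ppi1 over wild type, to which DFR was added after its values were seen. Members and lists were chosen with earlier results of these data known. The gene table served for the order and overlap of neighbouring genes; no coordinates are printed and no sequences were used here.

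The calculation was tested on simulated data and recovered the changes put in, among genes above the floor. Those changes were larger than any P450 ratio given here, and ratios of the P450 size were not simulated. Alternatives were loess (span 0.4), quantile normalization, median centring, spike-in scaling, other floors, other choices of probe set, and thresholds of 1.5-fold and 3-fold. Spike-in scaling used the mean log2 ratio of 9 control probe sets for BioB, BioC, BioDn and CreX. That mean was -0.48 for ppi1 and 0.18 for line 75-IV over wild type. Whether this scaling follows total mRNA, or differences in array quality, was not tested. Python 3.11.15, numpy 2.4.6, pandas 2.3.3 and statsmodels 0.14.6 were used.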

Additional observations from a re-analysis of the deposited data

Results flagged for a closer look

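CYP71B6 is given here because its signal lay on opposite sides of wild type in the mutants, with log2 ratios of -0.24 for ppi1 and 0.20 for line 75-IV. Both ratios share the wild-type array, each rests on 1 array, and the difference was not tested. Under spike-in scaling both were positive, at 0.25 for ppi1 and 0.02 for line 75-IV.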

How the results depend on the processing

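With 1 array per group, no replicate could be left out. No paired analysis was possible because each group has a single array without a replicate number. All 3 P450 genes stayed above the floor of each alternative with the exception of CYP71B29 in line 75-IV under the floor at the 60th percentile, and CYP71B6 drops out of the probe sets without a suffix. At 1.5-fold, 1 P450 gene in place of 0 passed the threshold for line 75-IV over wild type, beside 11.8% of all measured genes. The same count was found for ppi1 over line 75-IV, beside 24.6%. In each the gene was CYP71B29. It was also the 1 P450 gene past 2-fold, in place of 0, under spike-in scaling for ppi1 over line 75-IV. Under that scaling 504 genes were at least 2-fold higher and 17 lower in ppi1 than in line 75-IV, 27.7% of those measured. The median log2 ratio of the P450 genes moved to 0.61 under spike-in scaling for ppi1 over line 75-IV. With probe sets without a suffix, which leave 2 genes, it was -0.34 for line 75-IV over wild type and 0.35 for ppi1 over line 75-IV. The other counts did not change, and the other medians moved by less than the median spread between probe sets of 1 gene, the farthest to 0.43 under spike-in scaling for ppi1 over wild type. For all genes, 380 were at least 2-fold higher and 12 lower in ppi1 than in wild type under spike-in scaling, against 79 and 45 as deposited. Over its alternatives CYP71B29 ran from -0.99 to -0.81 for line 75-IV over wild type, from 0.65 to 1.42 for ppi1 over line 75-IV, and from -0.20 to 0.43 for ppi1 over wild type. Its signal of 31.1 in line 75-IV is the P450 value nearest to the floor.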

Other observations

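Among the 4 protein-coding genes on either side of CYP71B6, AT2G24170 and AT2G24130 had named probe sets. AT2G24170, the gene before it, had signals of 15.6 in ppi1, 21.2 in line 75-IV and 15.9 in wild type, all near the floor. AT2G24130 was below the floor on each array, at 3.2 in ppi1, 8.7 in line 75-IV and 8.4 in wild type.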
